A study of Mus musculus with 8 samples.

Results

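Aminoacyl-tRNA synthetases join each amino acid to its transfer RNA, the step that sets which amino acid a codon calls for. The members described here are the 36 synthetase genes of the count table found by gene name, of 43346 genes in all: 20 encode cytosolic enzymes and 16 encode mitochondrial ones, whose symbols end in 2. All 36 had enough reads to be among the 14991 genes tested. Gars and Kars are counted as cytosolic, although each of these genes serves both compartments through alternative forms of its protein.

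The RNA came from MC3T3 cells, a mouse line of pre-osteoblasts that forms bone-like matrix in culture. Both groups were grown for 7 days with 10 mM beta-glycerophosphate and 100 µg/mL ascorbic acid, which support mineralization. The LLC_CM group (4 libraries) also received 25% serum-free medium in which LLC1 tumour cells, derived from a mouse Lewis lung carcinoma, had been kept for 48 h. The NCM group (4 libraries) is taken as the vehicle control by elimination, since the labels name only these treatments and do not spell out NCM. All libraries come from 1 cell line, and nothing in the labels says that they came from separate cultures, so the p-values measure the spread between these libraries, which may be technical. No share of added medium is recorded for NCM, so products of the tumour cells and the replacement of medium cannot be told apart. The comparison asks how RNA levels in the osteoblasts differed with the tumour medium, here for the enzymes that charge tRNA.

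Cytosolic protein synthesis and mitochondrial protein synthesis use separate tRNAs and, for most amino acids, separate synthetase genes, all of them in the nucleus. Several cytosolic synthetases travel together in a multisynthetase complex held by scaffold proteins. When charged tRNA runs short, uncharged tRNA activates the kinase Gcn2 and translation of the transcription factor Atf4 rises. Atf4 then switches on genes for amino acid supply, and many cytosolic synthetase genes are known among its targets. Osteoblasts depend on Atf4 and on amino acid supply to make their collagen-rich matrix.

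Library totals ran from 27264212 to 35573953 counts, and levels are given as CPM, a gene's reads relative to the library total after trimmed-mean (TMM) scaling. Osteoblast markers were present in every library. The 7 listed summed to 45300 to 55900 CPM in LLC_CM and to 65400 to 87100 CPM in NCM, mostly from Col1a2, Col1a1 and Ibsp. All 7 were called lower in LLC_CM (adjusted p under 0.05, edgeR), against 18.1% of all genes tested. Their median log2 fold change was -0.99. Bglap fell most, from 128 ± 33.2 CPM in NCM to 1.55 ± 0.28 in LLC_CM (SD, n = 4 each). Of 6 epithelial and lung markers 5 were at 0 (Epcam, Krt8, Krt18, Nkx2-1 and Sftpc), and the list summed to at most 0.0897 CPM in any library. The sums of 6 macrophage markers ran from 18.7 to 32.3 CPM in LLC_CM and from 11.7 to 17.4 in NCM. Most of this was Lyz2, with means of 20.3 and 11.5 CPM. Lyz2 and Fcer1g were called higher, Cd68 and Csf1r did not pass, and Ptprc and Emr1 were at or near 0. The sums of 4 adipocyte markers ran from 9.44 to 16.1 CPM in LLC_CM and from 3.32 to 5.14 in NCM. Most of this was Fabp4, with means of 11.3 and 4.36 CPM, while Adipoq, Plin1 and Pparg stayed near 0. The 4 chondrocyte markers summed to 35.3 to 37.4 CPM in LLC_CM and 66.5 to 92.5 in NCM, with Col10a1 at 0: Col2a1 fell by 4.82 ± 0.24 on the log2 scale, while Sox9 rose by 0.76 ± 0.07 (adjusted p = 3.21e-08 and 7.24e-07, edgeR). Endothelial markers (Cdh5 and Kdr at 0) reached 0.318 CPM at most, and muscle markers (Actc1 and Myog at 0) 5.44. The part of these differences in the synthetase results was not tested, and in RNA from bulk cultures fewer cells of a type and less RNA per cell cannot be told apart.

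RNAs of many cytosolic synthetases were lower in LLC_CM, while most mitochondrial ones did not pass the test in either direction. Of the 20 cytosolic genes 10 fell, and none rose: Gars, Cars, Iars, Eprs, Mars, Nars, Yars, Aars, Sars and Tars. Of the 16 mitochondrial genes 3 fell, Lars2, Nars2 and Hars2, and none rose. Among all genes tested 18.1% were called lower and 18.8% higher at an adjusted p under 0.05 (edgeR quasi-likelihood test, Benjamini-Hochberg over all genes), or 36.9% in both directions. The 13 called members out of 36 are thus about the same share as the calls over all genes, and all 13 lay in 1 direction. The median log2 fold change, LLC_CM relative to NCM, was -0.19 over the cytosolic genes, -0.01 over the mitochondrial genes and 0.01 over all genes tested. No cytosolic gene was higher at an unadjusted p under 0.05 in edgeR, nor was any called higher by DESeq2 or limma-voom. Of the mitochondrial genes 1, Rars2, was higher at an unadjusted p under 0.05, and DESeq2 and limma-voom called 0 of them higher.

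The changes were small. Among the called members 12 of 13 differed by less than 1.5-fold, and Gars differed by 1.53-fold. Summed over the 20 cytosolic genes, the level was 2463 ± 47.0 CPM (SD, n = 4) in LLC_CM and 2856 ± 28.2 CPM (SD, n = 4) in NCM, so LLC_CM stood at 86.2% of NCM. Over the mitochondrial genes without Lars2, which is far more abundant than the other 15, the sums were 363 ± 6.93 and 360 ± 9.42 CPM (SD, n = 4 each), or 101% of NCM. The lowest cytosolic sum in NCM, 2827 CPM, lay above the highest in LLC_CM, 2506 CPM, while the mitochondrial sums overlapped.

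**Figure D1:**
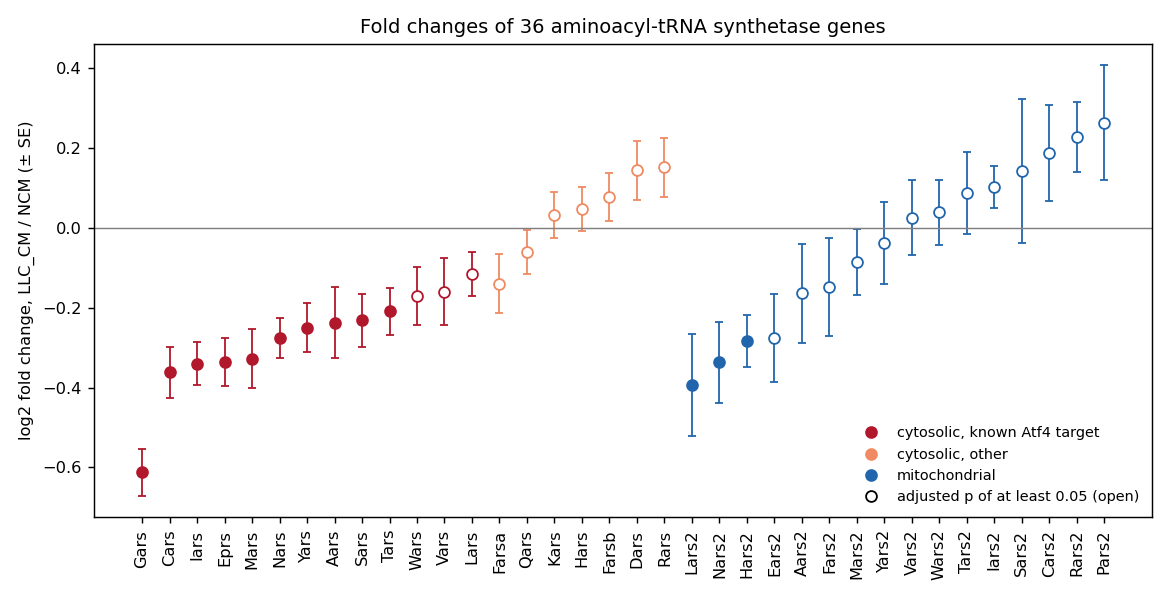
Fitted log2 fold change of each of the 36 synthetase genes, LLC_CM relative to NCM, on the vertical axis, with bars for the standard error; filled points passed an adjusted p of 0.05. All 13 filled points lie below 0, from Tars at -0.21 to Gars at -0.61, and the mitochondrial genes spread to both sides of 0.

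Gars, which charges tRNA with glycine in both compartments (ENSMUSG00000029777, chr6:55038001-55079504 in mm10), changed most. Its level was 230.5, 215, 239 and 227 CPM in LLC_CM and 362, 333, 352 and 347 CPM in NCM. The groups were far apart compared with their own spread, and the highest LLC_CM library was well below the lowest NCM library. The log2 fold change was -0.61 ± 0.06 (SE; adjusted p = 7.33e-07, edgeR). Glycine is the most frequent residue of collagen, the main protein that osteoblasts secrete. Kars, the lysine enzyme that also serves both compartments, stood at 177, 164, 172 and 182 CPM in LLC_CM and 171, 178, 172 and 159 CPM in NCM. Its groups overlapped, and its log2 fold change of 0.03 ± 0.06 did not pass the test.

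Eprs charges tRNA with both glutamate and proline, the latter another major collagen residue, from a single fused protein (chr1:185363044-185428360). It was the second most abundant member in CPM after Lars2, with 469.5, 443, 437 and 445 CPM in LLC_CM and 578, 579, 538 and 569 CPM in NCM. No library of one group reached the other, and the log2 fold change was -0.34 ± 0.06 (adjusted p = 0.000382, edgeR). Iars, the isoleucine enzyme (chr13:49682100-49734267), had 141, 128, 139.8 and 138 CPM against 169.65, 181, 171 and 172 CPM. It fell by 0.34 ± 0.05 on the log2 scale (adjusted p = 0.000123, edgeR). Mars, the methionine enzyme that also charges the initiator tRNA (chr10:127296221-127311786), had 66.9, 65.6, 82.7 and 77.1 CPM in LLC_CM against 86.8, 92.1, 93.5 and 94.8 CPM in NCM. Its LLC_CM libraries were more scattered, yet all were below the NCM range, and it fell by 0.33 ± 0.07 (adjusted p = 0.00254, edgeR). These 3 enzymes belong to the multisynthetase complex.

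Cars, the cysteine enzyme (chr7:143557230-143600090), had 38.0, 33.8, 36.5 and 39.0 CPM in LLC_CM and 47.9, 46.0, 47.9 and 47.7 CPM in NCM. The NCM libraries were nearly equal, and the log2 fold change was -0.36 ± 0.06 (adjusted p = 0.000326, edgeR). Nars, the asparagine enzyme (chr18:64499665-64516557), showed the tightest groups of the falling members, with 171, 168, 161 and 168 CPM against 203, 201, 201 and 204 CPM. It fell by 0.28 ± 0.05 (adjusted p = 0.000474, edgeR). Yars, the tyrosine enzyme (chr4:129189760-129219607), had 57.3, 52.6, 60.2 and 61.0 CPM against 66.2, 67.5, 71.5 and 69.7 CPM, a fall of 0.25 ± 0.06 (adjusted p = 0.00487, edgeR). None of these 3 genes had a library of one group within the range of the other.

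Sars, the serine enzyme (chr3:108424865-108445209), and Tars, the threonine enzyme (chr15:11383663-11399658) were separated by narrow gaps. For Sars the LLC_CM libraries had 97.6, 93.7, 95.0 and 102 CPM and the NCM libraries 108, 115, 128 and 105 CPM, a log2 fold change of -0.23 ± 0.07 (adjusted p = 0.0119, edgeR). Tars had 102, 92.3, 98.5 and 104 CPM against 110.5, 114, 112 and 123 CPM, a log2 fold change of -0.21 ± 0.06 (adjusted p = 0.0111, edgeR). Aars, the alanine enzyme (chr8:111033144-111057664), was the only one of the 10 with overlapping groups. It had 117, 95.6, 133 and 128 CPM in LLC_CM and 129, 136, 152 and 139.8 CPM in NCM. Its log2 fold change was -0.24 ± 0.09 with an adjusted p of 0.0486 (edgeR), and without the lowest library, LLC_CM replicate 2, it was -0.15 with an adjusted p of 0.0897. The call held in 8 of 16 other fits and was also lost without LLC_CM replicate 1 or NCM replicate 2, 3 or 4, at adjusted p from 0.0763 to 0.126. The gene shares 14.3% of its annotated exon bases with Exosc6 on the same strand.

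The other 9 cytosolic calls held under all 16 other fits of the data, which changed the scaling, the low-count filter or the tool, added the replicate number as a block, or left out 1 library. Of the 20 cytosolic genes 10 had non-overlapping groups with LLC_CM lower, against 18.2% of all genes tested, and none had LLC_CM wholly above NCM. Wars, the tryptophan enzyme, was one of the 10, with 24.1, 23.0, 25.5 and 25.2 CPM against 25.7, 27.5, 29.3 and 27.8 CPM, but its log2 fold change of -0.17 ± 0.07 missed the threshold (adjusted p = 0.0800, edgeR).

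All 10 falling cytosolic genes are among the 13 listed as known Atf4 targets, and none is among the other 7. Over all genes tested the shares called were 18.1% lower and 18.8% higher. The 13 are the 10 falling genes together with Wars, Vars and Lars, and every log2 fold change among them was below 0, with a median of -0.25. Vars (valine) had a log2 fold change of -0.16 ± 0.09 and Lars (leucine) one of -0.11 ± 0.06, neither past the threshold. The other 7 are Dars, Farsa, Farsb, Hars, Kars, Qars and Rars, and edgeR, DESeq2 and limma-voom called 0 of them lower or higher, with 0 at an unadjusted p under 0.05 in edgeR. Of these 7 genes 5 had a log2 fold change above 0, and their median was 0.05. The values ran from -0.14 ± 0.07 for Farsa, the catalytic chain of the phenylalanine enzyme, to 0.15 ± 0.07 for Rars, the arginine enzyme. Farsb, the partner chain of Farsa, was at 0.08 ± 0.06, Dars (aspartate) at 0.14 ± 0.07, Hars (histidine) at 0.05 ± 0.05 and Qars (glutamine) at -0.06 ± 0.06. The difference between the 2 groupings was not itself tested, since the grouping was written with earlier results on these data known.

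The 13 known targets summed to 1661 ± 57.0 CPM in LLC_CM and 2085 ± 6.10 CPM in NCM (SD, n = 4 each), or 79.7% of NCM, with ranges of 1577 to 1703 and 2076 to 2089 CPM. The NCM sums thus lay within a narrow band, and every LLC_CM library was below it. The other 7 summed to 802 ± 32.8 and 771 ± 31.4 CPM, or 104% of NCM, and overlapped. Within the LLC_CM group, replicate 2 was the lowest library for 10 of the 13 known targets and the highest for 4 of the other 7. This library also had the lowest total of all, 27264212 counts, and the part of depth in that order was not tested.

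**Figure D2:**
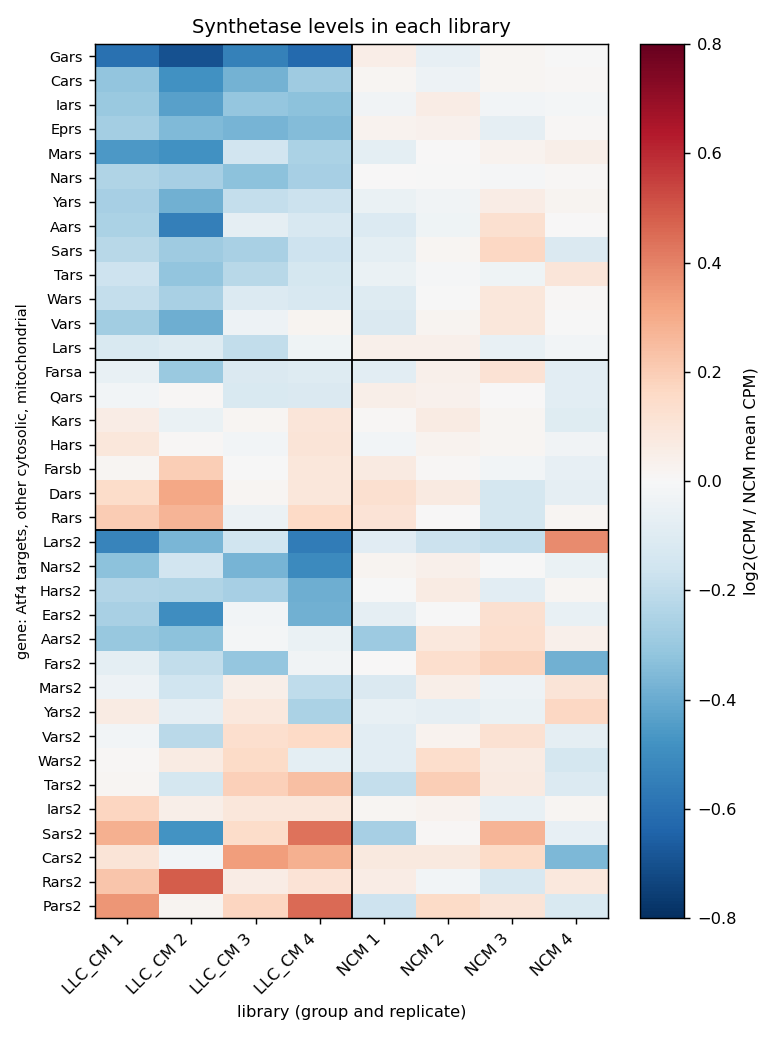
Level of each synthetase gene in each of the 8 libraries, as the log2 ratio of its CPM to the NCM mean (blue lower, red higher); lines divide known Atf4 targets, other cytosolic genes and mitochondrial genes, and the 2 groups of libraries. The upper block is blue across the LLC_CM columns for the 10 falling genes, while the middle block and most of the lower block hold both colours within a group.

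Promoter windows were then read for the same groupings. Atf4, paired with a C/EBP factor, binds a short composite element, and the letters TGATGNAA (N for any base) were searched on both strands in the RefSeq windows of GRCm38.p6, from 250 bases before to 50 after a gene's start. A window was found for 27 of the 36 members, not for Cars, Hars, Lars, Nars, Rars, Vars, Wars, Hars2 and Pars2. The letters were found for 5 of 8 known targets with a window (62.5%), 0 of 5 other cytosolic genes and 0 of 14 mitochondrial genes. Over all 27025 genes of the table the share was 4.51% (1219 genes). The 5 genes with a match, Aars, Gars, Iars, Tars and Yars, are among the 10 that fell, but so are all 8 known targets with a window, so the match does not divide falling targets from the others. Sites are shown because they are the letters these genes have in common. Each is printed on the gene's own strand, with the matching letters in capitals:
Gars site (chr6:55037960-55037989, + strand): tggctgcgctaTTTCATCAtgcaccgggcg
Iars site (chr13:49682126-49682155, + strand): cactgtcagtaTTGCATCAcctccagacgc
Tars site (chr15:11399655-11399684, - strand): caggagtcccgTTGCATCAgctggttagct
Yars site (chr4:129189895-129189924, + strand): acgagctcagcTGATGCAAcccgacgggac
Aars site (chr8:111033840-111033869, + strand): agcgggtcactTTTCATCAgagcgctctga

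The sites shown began at 9 bases after the RefSeq start for Aars, 7 for Iars and 3 for Yars, and at 15 bases before it for Tars and 30 for Gars. They do not include every match in these windows. Only the Yars site has the searched letters on the gene's strand, as TGATGCAA. The other 4 sites shown carry the reverse complement of TGATGNAA, as TTGCATCA for Iars and Tars and as TTTCATCA for Gars and Aars. Eprs, Mars and Sars, the other known targets with a window, had no match there. A match is a run of letters, and these data hold no measurement of factor binding.

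Of the mitochondrial genes, Hars2 and Nars2 gave the firmer calls. Hars2, the mitochondrial histidine enzyme (chr18:36783008-36792562), had 37.1, 37.0, 36.3 and 33.3 CPM in LLC_CM and 43.6, 45.7, 41.2 and 44.2 CPM in NCM. The groups did not overlap, and the log2 fold change was -0.28 ± 0.06 (adjusted p = 0.00280, edgeR). Nars2, for asparagine (chr7:96951505-97064761), is a low-level gene with 9.02, 10.2, 8.76 and 7.98 CPM against 11.5, 11.7, 11.3 and 10.9 CPM. It fell by 0.34 ± 0.10 (adjusted p = 0.0161, edgeR), and both calls held in all 16 other fits. Hars and Hars2 lie head to head on opposite strands and share 195 exon bases, 7.97% of Hars and 4.56% of Hars2, and the library kit does not mark strand, so reads from that stretch cannot be told apart.

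Lars2, the mitochondrial leucine enzyme (chr9:123366940-123462664), was unlike every other member in level. It took 80248 to 157183 counts per library, 0.260% to 0.505% of all reads, and in NCM it stood 40.8-fold above the next mitochondrial gene in CPM. Its levels were 2656, 2969, 3417 and 2595 CPM in LLC_CM and 3592, 3395, 3342 and 4958 CPM in NCM. The groups overlapped, and NCM replicate 4 was far above the other 3. The log2 fold change was -0.39 ± 0.13 (adjusted p = 0.0264, edgeR), and without NCM replicate 4 it was -0.25 with an adjusted p of 0.0662, and the call held in 11 of the 16 other fits. Leaving out LLC_CM replicate 1, 2 or 4 also ended the call, at adjusted p of 0.0732, 0.0536 and 0.0752.

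Part of the Lars2 transcript is repeated elsewhere in the annotation. Its bases 3278 to 3349 match the antisense gene Gm15564 at 98.6% over 72 bases, and bases 3233 to 3329 match AA474408 at 94.8% over 97 bases. Gm15564 was also highest in NCM replicate 4, at 208 CPM against 93.8 to 105 CPM in the other NCM libraries. In LLC_CM it had 94.8 to 122 CPM, and its log2 fold change of -0.22 ± 0.26 did not pass the test (adjusted p = 0.550, edgeR). Reads from this stretch could be assigned to either gene, so the level of Lars2 is uncertain, and how much of it comes from there was not tested. AA474408 had at most 0.425 CPM. Among the other members, Iars matches the pseudogene Gm4849 at 96.0% over 1656 bases, but Gm4849 had 193 counts in all libraries together against 37807 for Iars. Tars holds a stretch, within bases 2969 to 3177 of its 4005-base transcript, that matches 263 other annotated genes over 51 to 200 bases. Stretches of Wars2 and Tars2 match 66 and 26 other genes. The share of reads these stretches take was not measured, so the levels of Tars, Wars2 and Tars2 carry that uncertainty.

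The remaining 13 mitochondrial genes did not pass the test, which does not show that they were unchanged. Rars2, for arginine, came closest from above, with 51.7, 61.9, 46.2 and 47.7 CPM against 46.1, 43.5, 40.5 and 47.0 CPM and a log2 fold change of 0.23 ± 0.09 (adjusted p = 0.0562, edgeR). It passed in 5 of the 16 other fits, with adjusted p from 0.0266 to 0.0480. Ears2, for glutamate, came closest from below at -0.28 ± 0.11 (adjusted p = 0.0629, edgeR). Iars2, for isoleucine, was the 1 member with every LLC_CM library above every NCM library (18.1% of all genes tested were separated in this way), at 106, 97.0, 99.8 and 99.8 CPM against 94.8, 95.5, 89.8 and 94.6 CPM. Its log2 fold change was 0.10 ± 0.05 (adjusted p = 0.149, edgeR). About 22.9% of its exon bases overlap Rab3gap2 on the opposite strand. The others ran from -0.16 ± 0.12 for Aars2 to 0.26 ± 0.14 for Pars2, and 8 of all 16 mitochondrial genes had a log2 fold change above 0 and 8 below. The signs of Vars2, Wars2 and Yars2 turned under some other settings, as did that of the mitochondrial median.

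Pairing the 2 enzymes of an amino acid within a library compares the compartments directly. For each of 16 pairs the log2 ratio of cytosolic to mitochondrial CPM was taken in each library, and the group means were compared with a two-sided exact permutation test over the 8 libraries, which has 70 splits and cannot give a p under 0.0286. The ratio was lower in LLC_CM for 13 of 16 pairs. It was separated between the groups for 5 of the 16 pairs, each at the smallest p. Among all single genes tested 36.3% had non-overlapping groups in either direction, so the share of separated pairs was not larger. Ratios of other gene pairs were not taken. After Benjamini-Hochberg adjustment over the 16 pairs the 5 separated pairs stood at 0.0914, so none passed (exact permutation). With that floor, many more than 5 pairs would have had to reach the smallest p for any to pass. The adjusted result therefore cannot decide whether single pairs differed. Eprs enters 2 of the pairs.

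The pair for isoleucine was the cleanest. Iars over Iars2 had log2 ratios of 0.41, 0.41, 0.49 and 0.47 in LLC_CM and 0.84, 0.92, 0.93 and 0.86 in NCM, a difference of -0.44 ± 0.03 (SE). The spread within each group was far smaller than that gap. Cars over Cars2 differed by -0.55 ± 0.13, with 1.49, 1.45, 1.21 and 1.35 against 1.85, 1.79, 1.78 and 2.28. Eprs over Pars2, both for proline, differed by -0.59 ± 0.13, and Vars over Vars2 by -0.19 ± 0.04. Histidine went the other way: Hars over Hars2 had 0.95, 0.87, 0.86 and 1.11 in LLC_CM and 0.60, 0.58, 0.72 and 0.57 in NCM, a difference of 0.33 ± 0.07, as Hars2 fell and Hars did not pass the test. The pairs for asparagine (0.06 ± 0.08) and leucine (0.27 ± 0.18) also lay above 0, with overlapping groups.

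**Figure D3:**
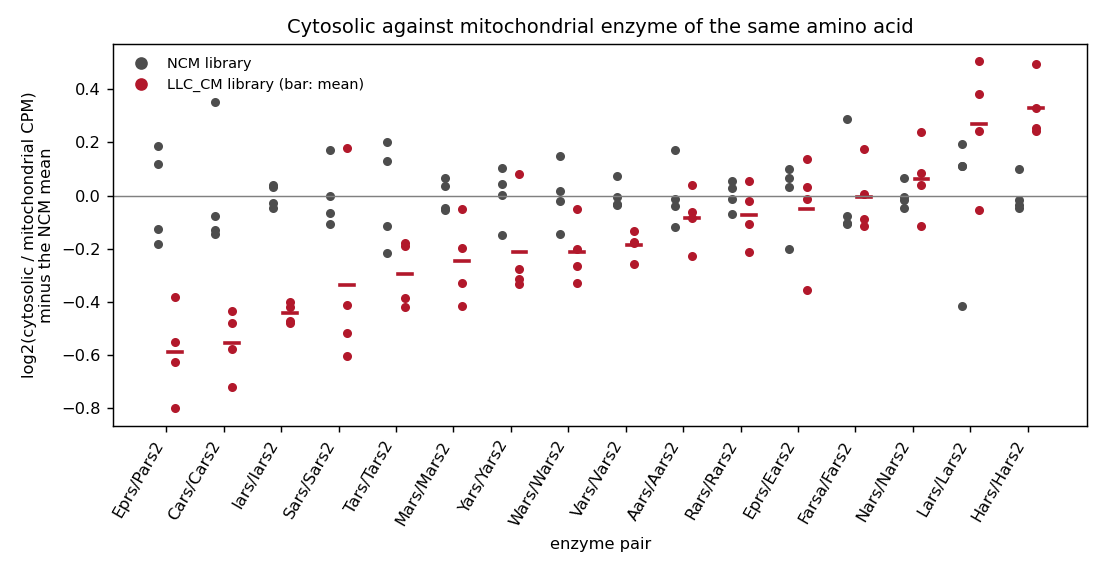
Log2 ratio of cytosolic to mitochondrial CPM for 16 enzyme pairs in each library, relative to the mean of the NCM libraries (grey, NCM; red, LLC_CM, with the mean as a bar). LLC_CM libraries lie wholly below NCM for Eprs/Pars2, Cars/Cars2, Iars/Iars2 and Vars/Vars2, and wholly above for Hars/Hars2.

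Scaled by gene length, as CPM per kilobase, cytosolic synthetases were the more abundant set. In NCM their levels per kilobase ran from 7.99 for Wars to 146 for Gars, and those of the mitochondrial genes without Lars2 from 1.29 for Pars2 to 15.98 for Rars2, while Lars2 stood at 985. The cytosolic enzyme had the higher level per kilobase in 15 of 16 pairs, Lars and Lars2 being the exception. Gars was first among the cytosolic genes in both groups, at 146 ± 5.04 in NCM and 95.4 ± 4.16 in LLC_CM (SD, n = 4 each, CPM per kilobase). Of the 35 neighbours in the order of NCM levels, 20 had overlapping libraries, so the order within most of the list is not resolved.

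**Figure D4:**
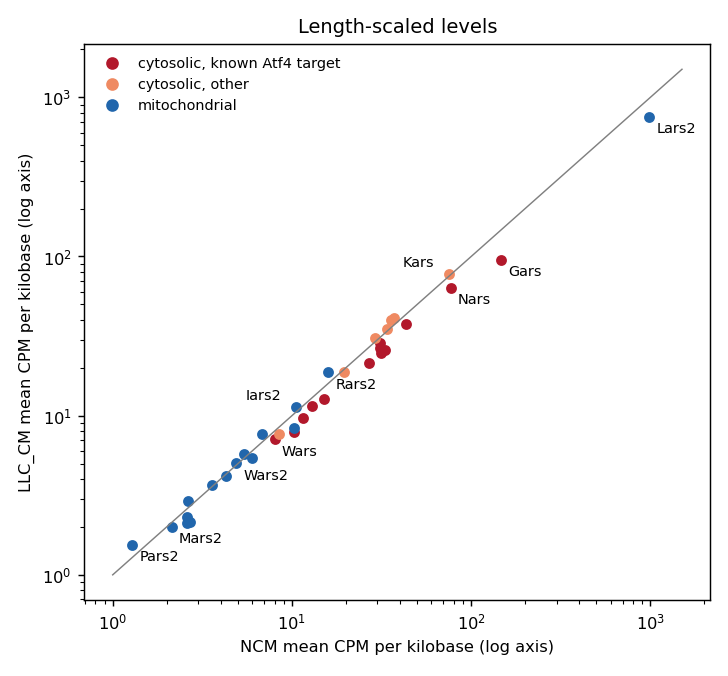
Mean CPM per kilobase of each synthetase gene in NCM (horizontal, log axis) and LLC_CM (vertical, log axis), with a line of equal levels; selected genes are named. Most points lie near the line, Gars at 146 against 95.4 lies below it, and Lars2 stands apart at 985 CPM per kilobase in NCM.

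The members were also grouped by enzyme architecture, with no test between the groupings. The counts in this paragraph stand beside 18.1% of all genes tested called lower. Class I enzymes, which share a nucleotide-binding fold known as the Rossmann fold, had 6 of 19 genes lower and a median log2 fold change of -0.11. Class II enzymes, built around an antiparallel sheet, had 7 of 17 lower and a median of -0.15. Of the 8 cytosolic members of the multisynthetase complex 3 fell, with a median of -0.09. Of the 12 cytosolic genes outside it 7 fell, with a median of -0.22. The complex holds 4 of the 7 genes that are not among the known Atf4 targets (Dars, Kars, Qars and Rars).

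The neighbouring steps of tRNA charging did not all move with the synthetases. The counts in this paragraph stand beside 18.8% of all genes tested called higher. Of the 3 scaffold genes of the complex 1 rose, Aimp2, with 37.3, 37.3, 40.6 and 40.9 CPM in LLC_CM and 27.5, 32.4, 33.5 and 30.5 CPM in NCM. Its log2 fold change was 0.33 ± 0.07 (adjusted p = 0.00247, edgeR), and 29.4% of its exon bases overlap Eif2ak1 on the opposite strand. Of 4 genes for mitochondrial amidation and formylation 2 rose. Gatb, a subunit of the enzyme that converts glutamate on mitochondrial glutamine tRNA into glutamine, had 99.5, 115, 92.8 and 88.2 CPM against 44.8, 44.6, 36.3 and 39.0 CPM. No synthetase differed as much, and the log2 fold change was 1.26 ± 0.09 (adjusted p = 4.39e-08, edgeR). Qrsl1, another subunit of the same enzyme, rose by 0.35 ± 0.10 (adjusted p = 0.0105, edgeR), and the third subunit, Gatc, was at -0.11 ± 0.09. Mitochondria lack an enzyme of their own that charges tRNA with glutamine and rely on this conversion, so Qars has no partner among the pairs.

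Xpot, the exporter that carries tRNA out of the nucleus, was the 1 gene of 5 in export and proofreading that fell. Over all genes tested 18.1% were called lower. Xpot had 139, 127, 143 and 144 CPM in LLC_CM against 170.2, 168, 182 and 193 CPM in NCM. Its log2 fold change was -0.36 ± 0.06 (adjusted p = 0.000276, edgeR), and its groups did not overlap. Elongation factors, which take charged tRNA to the ribosome, had 0 of 7 called by edgeR, 2 lower at an unadjusted p under 0.05, 2 lower by DESeq2 and 1 lower by limma-voom. The most abundant, Eef1a1, was at 11590 ± 489 CPM in LLC_CM and 13418 ± 1212 in NCM (SD, n = 4 each), a log2 fold change of -0.21 ± 0.09 (adjusted p = 0.0899, edgeR).

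Several other genes of the Gcn2 and Atf4 pathway had larger log2 fold changes than any synthetase. Of 18 tested genes of that list 10 fell and 2 rose, with a median log2 fold change of -0.43. Among all genes tested 18.1% were called lower and 18.8% higher. Asns, which makes asparagine, had 60.7, 59.7, 63.6 and 63.5 CPM against 131, 116, 131 and 132 CPM, a change of -1.05 ± 0.06, and Mthfd2, of mitochondrial folate metabolism, one of -1.17 ± 0.07 (adjusted p = 2.25e-09 and 6.28e-09, edgeR). Atf4 itself, named after its values were seen, had 135, 150.2, 154 and 150.2 CPM in LLC_CM and 198, 195, 223 and 211 CPM in NCM. It fell by 0.49 ± 0.06 (adjusted p = 1.75e-05, edgeR), between Gars and the other falling cytosolic members. Phgdh, the first enzyme of serine synthesis and also named after its values were seen, rose by 0.89 ± 0.10 (adjusted p = 1.33e-05, edgeR), so the list did not move in 1 direction. Atf4 is controlled mainly at translation, which RNA counts do not measure.

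Amino acid transporters of the same pathway were split, with 4 lower and 2 higher of 6 tested. Over all genes tested the shares were 18.1% lower and 18.8% higher. Slc7a1, which takes up arginine and lysine, had 40.2, 37.9, 45.7 and 39.3 CPM against 69.5, 72.7, 72.9 and 79.7 CPM, a log2 fold change of -0.85 ± 0.07 (adjusted p = 1.75e-07, edgeR). Slc7a5, the light chain of a leucine transporter, fell by 0.46 ± 0.09, while Slc3a2, its heavy chain, rose by 0.47 ± 0.05 (adjusted p = 0.000773 and 3.08e-06, edgeR). The 2 chains of 1 transporter thus moved in opposite directions.

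Wars is also known as a target of interferon gamma in many cells. Of the interferon gamma targets, Psmb9, a subunit of the immunoproteasome, rose by 2.24 ± 0.12 and Irf1, a transcription factor, by 0.76 ± 0.06 on the log2 scale (adjusted p = 1.44e-09 and 1.97e-07, edgeR). Psmb9 and Tap1 lie side by side and share exon bases (5.79% of Psmb9), which cannot be told apart. Wars did not rise with them, and no library of LLC_CM was above the lowest NCM library in Wars.

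**Figure D5:**
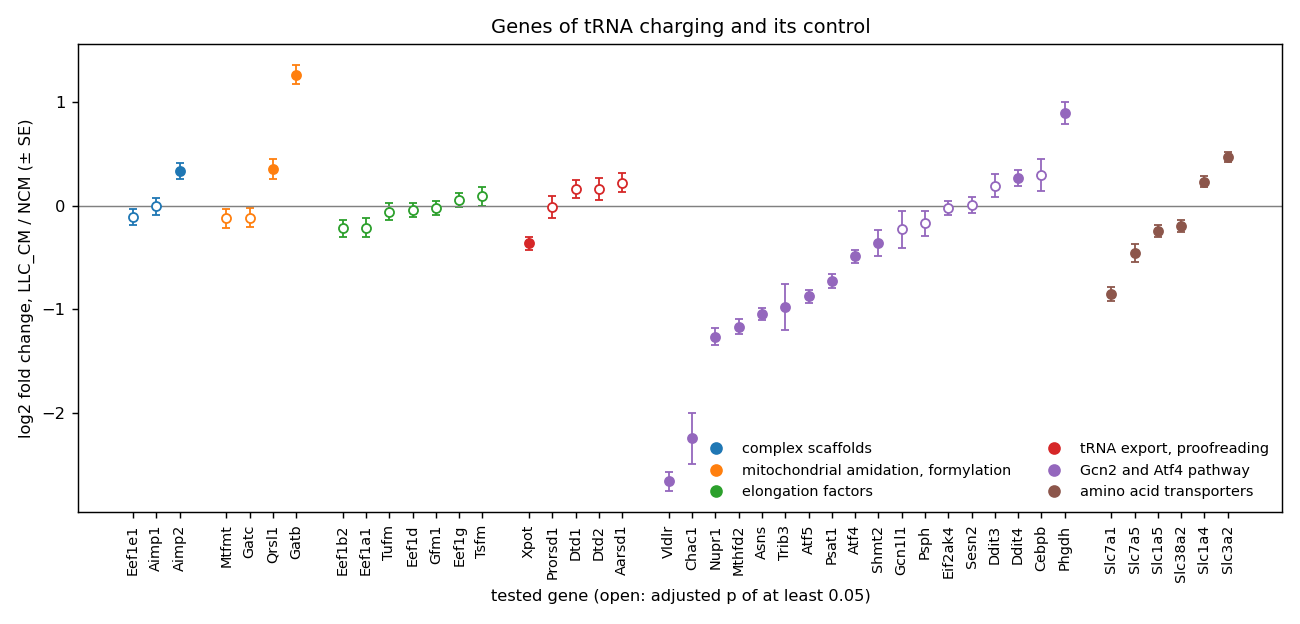
Fitted log2 fold change, LLC_CM relative to NCM, with standard errors, for the tested genes of 6 lists of tRNA charging and its control; filled points passed an adjusted p of 0.05. Gatb at 1.26 stands above its list, and the Gcn2 and Atf4 list runs from Vldlr at -2.66 to Phgdh at 0.89.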

How the data were processed

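Poly(A)-selected RNA of 8 MC3T3 libraries (4 LLC_CM, 4 NCM) was sequenced after 12 PCR cycles from 200 ng of RNA, as the labels' protocols state. The authors deposited raw read counts per gene and a gene length in bases, used here only for levels per kilobase. The submitters' processing notes name CASAVA, STAR, featureCounts and mm10, whose versions are not given in the sources used here. Strand is not marked by the kit.

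Counts were tested with edgeR 4.0.16 (limma 3.58.1, R 4.3.3): filterByExpr, TMM factors, a robust quasi-likelihood F test without covariate, and Benjamini-Hochberg adjustment over 14991 genes at a threshold of 0.05. The SE of a fold change was derived from its F statistic. Pair ratios used log2 CPM with a prior count of 2. Other settings were different scaling in edgeR (size factors of DESeq2, upper quartile, totals alone), no filter or at least 1 CPM in 4 libraries, DESeq2 1.42.0, limma-voom, a block for the replicate number, and each library left out. The mitochondrial set without Lars2 was added after seeing the data. The fit was tested on simulated data. No 2 libraries of a group agreed within sampling noise (chi-square per degree of freedom at least 7.07). Exon overlaps used GENCODE M21, and sequence matches blastn 2.17.0 (at least 90% identity over 50 bases). Promoter windows came from RefSeq GRCm38.p6, matched by symbol.

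The members, groupings and lists were chosen with earlier results of these data known. By rule the text names all members past the threshold, all cytosolic members, and from each pathway list up to 3 genes with the lowest adjusted p or, if none passed, the most abundant gene. Atf4, Phgdh, Gatc, the individually named cell type markers and the overlapping or matching genes were named after their values were seen. A few items chosen by this rule are left out of the text.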

Additional observations from a re-analysis of the deposited data

Results flagged for a closer look

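Of 104 groups of 4 libraries examined for a library far from the rest (its gap to the nearest other library over the group's range, above Dixon's critical value), 9 passed, and chance alone gives about 1 in 20. Lars2 in NCM had a ratio of 0.845, with replicate 4 at 4958 CPM above the others, and the Lars/Lars2 ratio in NCM followed it at 0.864. Cars in NCM had 0.864 from a lowest library of 46.0 CPM in a narrow group, and Cars2 in NCM 0.831 from a lowest library of 9.78 CPM, replicate 4, which also set the Cars/Cars2 ratio at 0.858. Iars2 in NCM had 0.835, with a lowest library of 89.8 CPM. Yars2 in NCM had 0.910, with a highest library of 15.1 CPM. The Yars/Yars2 ratio in LLC_CM had 0.864 and the Farsa/Fars2 ratio in NCM 0.919. NCM replicate 4 was the outlying library in Lars2, Yars2 and Cars2.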

How the results depend on the processing

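No called result changed direction under any setting tried. Values near 0 that were not called did so for 11 genes and pairs, among them Kars, Vars2, Wars2, Yars2, Eprs/Ears2 and Farsa/Fars2, and the mitochondrial median ran from -0.06 to 0.03, against -0.24 to -0.15 for the cytosolic median. Of 1744 values of single genes, single pairs and pathway lists, 1691 were judged the same, 20 lost a call, 22 gained one and 11 moved. For single genes, and for pairs in all libraries, the same meant an unchanged call, passed or not. For pathway lists it meant a count within a set fold of the main count. For pairs with a library left out no p was computed, and it meant a shift smaller than the larger group SD. The count of all genes called ran from 4912 to 5737, of falling cytosolic genes from 9 to 11 and of falling mitochondrial genes from 2 to 4 (2 without Lars2). The number of mitochondrial genes called higher was 1, Rars2, with upper-quartile factors, with no low-count filter and with the replicate block, and 0 to 1 when a library was left out (1 without LLC_CM replicate 3 or 4). The number of cytosolic genes called higher was 0 to 1 when a library was left out; the 1 was Rars without LLC_CM replicate 3, which is also the 1 among the cytosolic genes that are not known Atf4 targets. The number of separated pairs was 5 to 8 when a library was left out, 8 without LLC_CM replicate 4. The labels share replicate numbers between the groups and do not say what they mark. Same-numbered libraries correlated at 0.07, -0.04, 0.20 and -0.03 in their deviations from the group means. Libraries with different numbers correlated at -0.23 to 0.18. These correlations were not tested, so they do not settle whether the numbers pair the libraries. With the replicate block 5473 genes were called, 10 cytosolic and 4 mitochondrial genes fell, and 1 mitochondrial gene rose. The SE of a member's log2 fold change ran from 0.05 (Nars) to 0.18 (Sars2), and the part of depth in it was not tested.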
